A study of Pinus pinaster with 36 samples.

Results

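Nitrate-watered seedlings of Pinus pinaster, the maritime pine, were compared in their roots between 720 and 400 ppm CO2, with 3 libraries at each CO2 level. The transcripts described are those with a mean of at least 0.5 CPM (a transcript's count as a share of its library's total) over the 12 needle or over the 12 stem libraries, and of at least 1 CPM over the 12 root libraries. The shoot threshold is meant to keep to RNA of the pine itself, since roots can also carry the RNA of organisms that live on them. It left 61757 of the 224081 identifiers in the table (27.6%), called pine transcripts below. The rule averages over all treatments and uses no CO2 difference. A transcript can meet its root limit through the root libraries of ammonium-watered seedlings. Levels below are CPM with the library totals also scaled by TMM, edgeR's normalisation.

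The seedlings were 2 months old and of the Segura-Alcaraz provenance. Over 1 month at either CO2 level, the nitrate groups were watered weekly with 40 mL of 8 mM potassium nitrate, and the ammonium groups with ammonium chloride of the same strength. Each replicate was a pool of 12 seedlings that gave needles, stem and roots, so the organs of a pool are not independent. The sample labels name no growth chamber or tray, and the CO2 level cannot be told apart from such a difference. The deposited files pair no identifier with a gene name, so no function is given to any transcript, the roots could not be checked against marker genes, and no pathway list could be counted. Transcripts of near-identical sequence may share reads, and identifiers of neighbouring number are treated below as possibly of the same source.

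Roots take up nitrate through membrane transporters, and nitrate reductase and nitrite reductase turn it into ammonium, which glutamine synthetase and glutamate synthase build into amino acids. Each of these steps draws on carbon and reducing power from sugars sent down by the shoot. Elevated CO2 commonly raises photosynthesis and the sugar supply to roots, and in many plants it alters nitrate assimilation. The comparison addresses how the root transcriptome of nitrate-fed pine stands at elevated CO2, and whether ammonium-fed roots and the shoot of the same seedlings stand the same way.

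The 6 nitrate root libraries held between 77656953 and 110044875 counts, and replicate 1 at 720 ppm was the deepest. Identifiers at 0 counts made up 17.5 ± 4.61% of the table at 400 ppm and 13.9 ± 2.45% at 720 ppm (SD, n = 3 each). Transcripts outside the rule took 5.99 ± 0.315% of the counts at 400 ppm and 6.58 ± 0.564% at 720 ppm. Over the pine transcripts, log2(CPM + 1) values correlated with Pearson's r of 0.981 to 0.990 between libraries of the same CO2 level and 0.974 to 0.988 between levels, so the groups were nearly as alike as their replicates. All 61757 pine transcripts passed the filter on low counts, and 22 of them had 0 counts in at least 1 of the 6 libraries. Among the 6 ammonium root libraries, which share the estimate of spread, replicate 1 at 720 ppm stood apart, with 64.4% even values among its counts above 20 and 29.5% of identifiers at 0. Replicate 1 at 400 ppm followed, with 59.9% even values and 29.8% at 0, and the nitrate roots had 53.0 to 56.4% even values.

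Few pine transcripts were called as changed with CO2 in nitrate roots by the main test, and most of those called changed by less than 2-fold. At 720 ppm, 40 were higher and 49 lower than at 400 ppm with edgeR's quasi-likelihood test over the 12 root libraries (two-sided, Benjamini-Hochberg adjusted p under 0.05 over 156123 transcripts tested). These are 0.0648% and 0.0793% of the pine transcripts, against 0.142% higher and 0.561% lower among all transcripts tested. The 40 that rose had a median log2 fold change of 0.95 (0.48 to 2.59), and 19 of them changed over 2-fold. The 49 that fell had a median of -0.68 (-1.43 to -0.41), and 4 of them changed over 2-fold. The calls depend on the test: DESeq2 called 470 pine transcripts, all 89 of these among them, whereas limma-voom called 0, with 3461 at an unadjusted p under 0.05. In limma-voom the 89 had unadjusted p of 7.28e-06 to 0.0151. All kept their direction there, as a refit of the same counts makes nearly certain.

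The median change over all pine transcripts was small beside the error of a single transcript, though the spread of the changes was not. Their log2 fold changes had a median of -0.02, and 90% of them lay between -0.33 and 0.40, while the median standard error of a single transcript was 0.165. A change over 2-fold in either direction was fitted for 212 higher and 68 lower pine transcripts, called or not (0.453%), against 21.6% of the transcripts outside the rule, whose standard error had a median of 0.839. At an unadjusted p under 0.05 there were 1587 higher and 1990 lower pine transcripts (5.79%), against 6.25% of all transcripts tested. The 3 libraries at 720 ppm all lay above the 3 at 400 ppm for 3559 pine transcripts (5.76%) and all below for 5673 (9.19%), against 7.31% and 7.17% of all transcripts tested. All 89 called transcripts had groups that did not overlap.

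**Figure D1:**
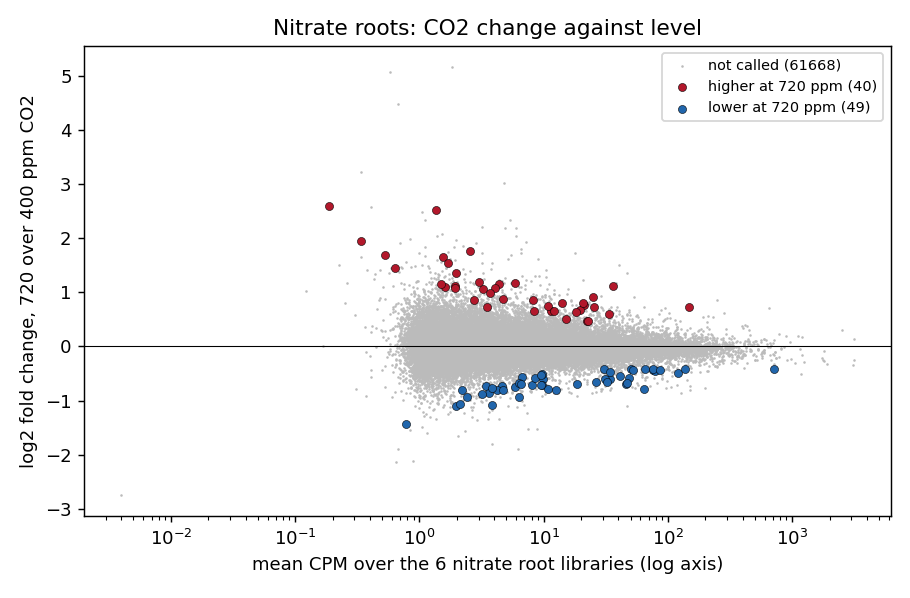
Log2 fold change in nitrate roots, 720 over 400 ppm CO2, against the mean CPM over the 6 nitrate root libraries (log axis), 1 point per pine transcript. The 40 called higher (red) span 0.186 to 148.6 CPM and the 49 called lower (blue) 0.778 to 711.9 CPM, and the largest fitted changes of called transcripts lie at low levels.

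The transcripts that rose and those that fell covered overlapping ranges of level. The median level over the 6 nitrate libraries was 4.56 CPM for those that rose (0.186 to 148.6 CPM), 9.82 CPM for those that fell (0.778 to 711.9 CPM) and 5.48 CPM for all pine transcripts. Below 2 CPM, 12 rose and 2 fell among 12716 pine transcripts, where the median standard error was 0.273. From 2 to 5 CPM 9 rose and 11 fell, from 5 to 10 CPM 3 rose and 12 fell, from 10 to 20 CPM 7 rose and 3 fell, and from 20 to 50 CPM 8 rose and 10 fell. Between 50 and 100 CPM, 0 rose and 8 fell among 2360, and above 100 CPM, 1 rose and 3 fell among 1248, where the median standard errors were 0.099 and 0.101. No test of this difference in level was made. CPM is not scaled by length here, so levels are compared only within a transcript or as group summaries.

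Of the transcripts that rose, PpCO2_87389 had the largest fold change among those whose 6 nitrate root libraries averaged 5 CPM or more. Its level was 4.32, 3.84 and 2.61 CPM in the libraries at 400 ppm and 7.44, 10.3 and 6.43 CPM in those at 720 ppm. All 3 libraries at 720 ppm stood above all 3 at 400 ppm, by 2.24-fold in the fit (log2 fold change 1.17, SE 0.216, edgeR adjusted p = 0.0209). In ammonium roots it stood at 3.40 ± 0.261 CPM at 400 ppm and 3.44 ± 0.658 CPM at 720 ppm (SD, n = 3), near the nitrate level at 400 ppm.

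PpCO2_109011 was the second by fold change among those of at least 5 CPM in nitrate roots and the second by level among all that rose. It stood at 22.2, 25.9 and 20.3 CPM at 400 ppm and at 66.2, 42.4 and 39.3 CPM at 720 ppm. The groups did not overlap, and replicate 1 at 720 ppm was the highest by far. The fitted change was 2.16-fold (log2 fold change 1.11, SE 0.170, edgeR adjusted p = 0.00542), and 0.84 on the log2 scale without that library. Ammonium roots held 15.8 ± 0.688 CPM at 400 ppm and 20.8 ± 2.39 CPM at 720 ppm (SD, n = 3), and that difference did not pass the test (edgeR adjusted p = 0.525).

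The most abundant transcript that rose was PpCO2_180707, a root transcript with 1.41 to 16.5 CPM as group means in nitrate needles and stem. Its values were 110.4, 117.9 and 108.2 CPM at 400 ppm and 223.9, 177.8 and 153.2 CPM at 720 ppm, with no overlap (log2 fold change 0.72, SE 0.147, edgeR adjusted p = 0.0419). With the replicate number as a block its adjusted p was 0.0895.

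Among those that fell, PpCO2_13897 had the largest fold change by the same limit on level. It stood at 8.65, 7.88 and 8.23 CPM at 400 ppm and at 4.85, 4.34 and 3.74 CPM at 720 ppm, 1.91-fold lower without overlap (log2 fold change -0.94, SE 0.197, edgeR adjusted p = 0.0482). PpCO2_57527 followed, with 17.0, 14.3 and 16.3 CPM at 400 ppm against 9.03, 9.48 and 8.68 CPM at 720 ppm (log2 fold change -0.81, SE 0.169, edgeR adjusted p = 0.0476). Its ammonium libraries went from 24.7 ± 5.93 to 12.9 ± 2.84 CPM (SD, n = 3), a log2 fold change of -0.93 that did not pass the test (edgeR adjusted p = 0.175).

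The 2 most abundant transcripts that fell changed by less than the median of the 49. PpCO2_157856 held 840.6, 764.6 and 834.1 CPM at 400 ppm and 628.6, 632.4 and 571.3 CPM at 720 ppm, a fall to 0.751 of its level (log2 fold change -0.41, SE 0.0784, edgeR adjusted p = 0.0248). Both ammonium groups lay between these, at 679.8 ± 46.8 and 683.7 ± 37.6 CPM (SD, n = 3). PpCO2_7303 held 163.4, 149.8 and 161.9 CPM at 400 ppm and 121.8, 113.9 and 119.2 CPM at 720 ppm (log2 fold change -0.42, SE 0.0884, edgeR adjusted p = 0.0481). In bulk roots, fewer cells of a type and less RNA per cell cannot be told apart for these or any other transcript.

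**Figure D2:**
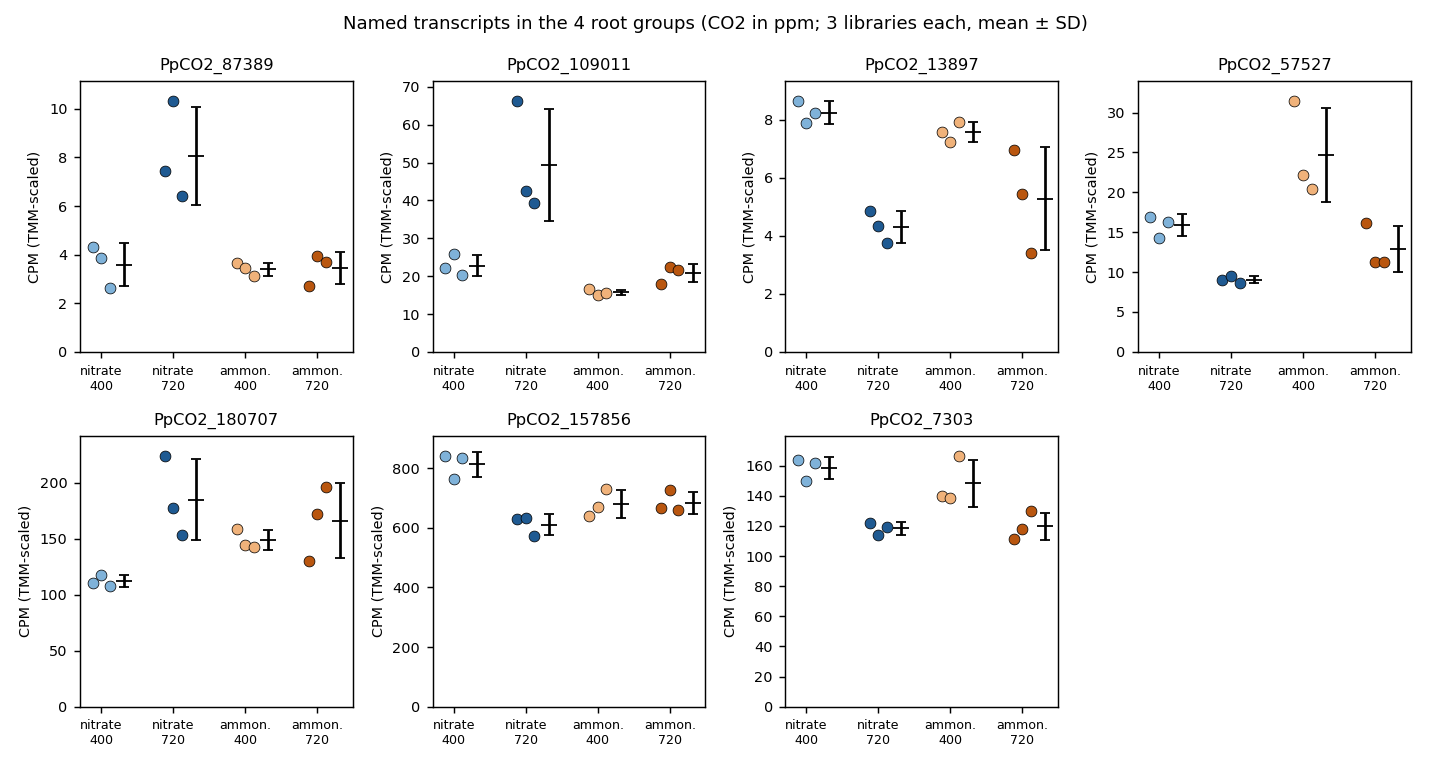
Level (TMM-scaled CPM) of the 7 named transcripts in the 3 libraries of each root group (points) with the group mean and SD (bars). In each panel the nitrate libraries at 720 ppm lie wholly above (PpCO2_87389, PpCO2_109011, PpCO2_180707) or wholly below (the other 4) those at 400 ppm.

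The calls depended on single libraries. Leaving out 1 nitrate library at a time left 20 to 60 pine transcripts called, 20 without replicate 3 at 400 ppm, 31 without replicate 1 at 400 ppm, 56 without replicate 2 at 400 ppm, and 52, 39 and 60 without replicates 1, 2 and 3 at 720 ppm. Leaving out the ammonium library that stood apart, replicate 1 at 720 ppm, gave 169, all 89 among them, and leaving out any other ammonium library gave 65 to 118. Of the 7 named transcripts, PpCO2_109011 was called in all 6 fits without a nitrate library and PpCO2_87389 in 3, PpCO2_180707 and PpCO2_157856 in 1 each, and PpCO2_13897, PpCO2_57527 and PpCO2_7303 in none. Each kept its direction in every one of these fits, which groups that do not overlap make nearly certain.

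In all 6 fits without a nitrate library, 5 of the 89 were called, 3 that rose and 2 that fell. Besides PpCO2_109011 they are PpCO2_101748, PpCO2_154284, PpCO2_156937 and PpCO2_156938, which were picked out after their values were seen. PpCO2_154284 stood at 8.17, 7.92 and 8.00 CPM at 400 ppm and at 15.4, 12.4 and 12.9 CPM at 720 ppm (log2 fold change 0.76, SE 0.106, edgeR adjusted p = 0.00223). Its ammonium libraries held 4.03 to 4.76 CPM at either CO2 level, and the log2 fold change there was 0.11 (edgeR adjusted p = 0.805). PpCO2_101748 went from 2.11 ± 0.127 to 4.39 ± 0.852 CPM (SD, n = 3). PpCO2_156937 and PpCO2_156938 bear consecutive numbers and nearly equal values, 12.1 ± 0.887 and 11.9 ± 0.964 CPM at 400 ppm and 7.35 ± 0.335 and 7.25 ± 0.397 CPM at 720 ppm (SD, n = 3), and may be 1 source counted under 2 identifiers.

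Called transcripts often came in runs of neighbouring numbers. With identifiers joined when their numbers lay within 10, the 89 formed 64 groups, and 19 of these held more than 1 called transcript, 44 in all. No group held both directions. The largest was a run of 5 between PpCO2_22065 and PpCO2_22080, all lower, with log2 fold changes of -1.10 to -0.42. The files do not say how the identifiers were numbered, so the number of separate genes behind the 89 is not known. Among pine transcripts near the called ones that were not themselves called, 245 of 401 near a transcript that fell were also lower, against 54.7% of all pine transcripts, and 201 of 325 near one that rose were also higher, against 45.3%.

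The transcripts that rose and those that fell also differed in where in the seedling they are found. Of the 40 that rose, 18 had more than 2 times the mean level in needles than in stem, a lean shown by 6.53% of pine transcripts, and 26 had their highest organ mean in roots, as did 49.9% of pine transcripts. Of the 49 that fell, 26 had more than 2 times the level in stem than in needles (29.6% of pine transcripts), 2 leaned to needles, 11 were highest in roots, and 17 were lowest there (16.3% of pine transcripts). The root means include the 6 libraries compared, and the runs of neighbouring identifiers count here as separate transcripts.

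**Figure D3:**
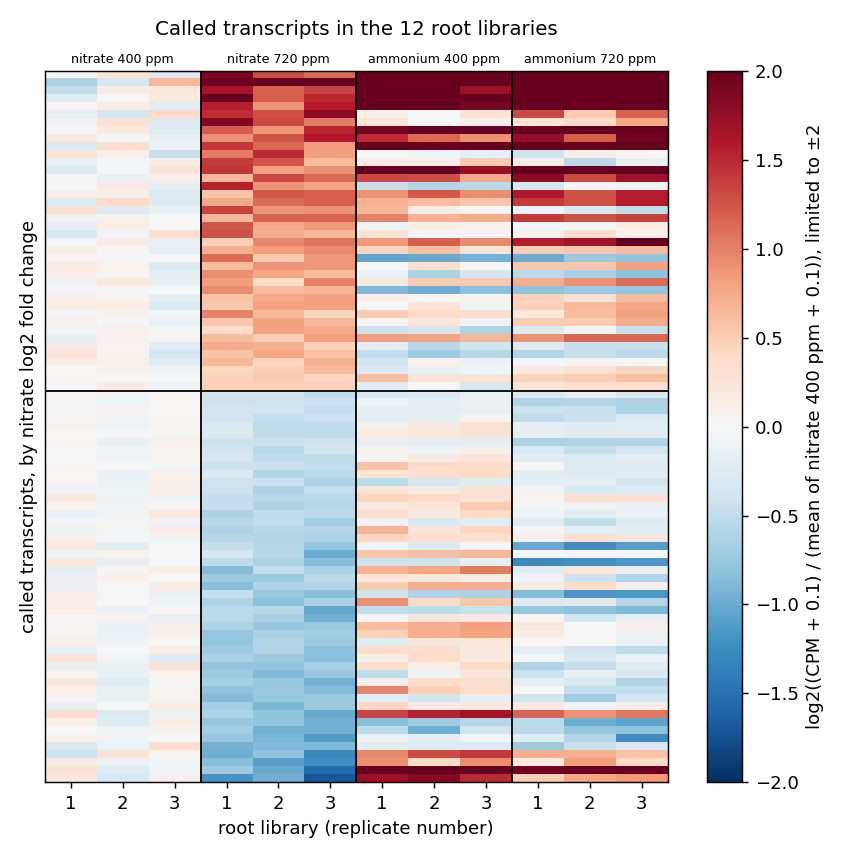
Called pine transcripts (rows, by nitrate log2 fold change, the 40 higher above the line and the 49 lower below) in the 12 root libraries (columns), as the log2 ratio to the mean of the nitrate libraries at 400 ppm. The nitrate libraries at 720 ppm are uniformly red above the line and blue below it, while the ammonium libraries vary from row to row. In 8 of the 40 upper rows all 6 ammonium libraries lie above all 3 nitrate libraries at 720 ppm. Some of these rows met the rule's root limit only through the ammonium libraries.

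Most of the transcripts that fell stood higher in ammonium roots than in the nitrate roots at 720 ppm. Among the 40 that rose, 8 had all 6 ammonium libraries above all 3 nitrate libraries at 720 ppm and 16 had all 6 below them. Among the 49 that fell, 34 had all 6 above and 0 had all 6 below. Over all pine transcripts 8.25% were above and 9.65% below by the same measure. Some of the 8, such as PpCO2_100016 (0.186 CPM over the nitrate libraries), reached the rule's root mean of 1 CPM only through the ammonium libraries. The nitrate libraries at 720 ppm also enter both this description and the choice of the 89, so it supports nothing about nitrogen form.

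The ammonium roots gave the same CO2 comparison in 6 other libraries. Of the 40 transcripts that rose under nitrate, 36 had a positive log2 fold change under ammonium, with a median of 0.40 (-0.59 to 1.00), and 50.6% of all pine transcripts were positive there. Of the 49 that fell, 47 were negative, with a median of -0.43 (-1.01 to 0.12), and 49.4% of all pine transcripts were negative. The spread used to test both comparisons was shared, but no library was. Same-numbered nitrate and ammonium libraries deviated from their group means with Pearson's r of 0.271, 0.111 and 0.0859 at 400 ppm. At 720 ppm r was 0.310, 0.0451 and 0.128 (replicates 1, 2 and 3), so the comparisons may not be independent. Across all 61757 pine transcripts the log2 fold changes of the nitrogen forms had a Pearson's r of 0.275, and of -0.05 across the transcripts outside the rule, each over transcripts that are not independent.

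**Figure D4:**
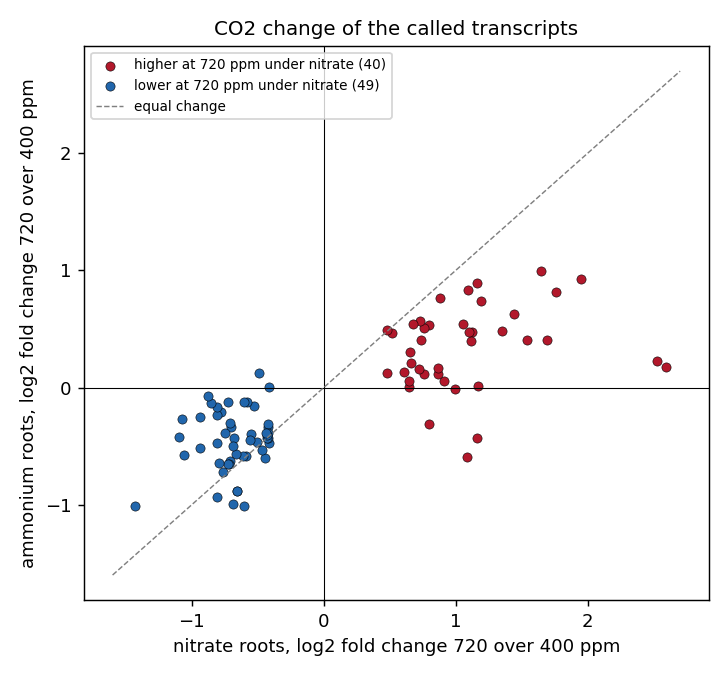
Log2 fold change, 720 over 400 ppm CO2, in nitrate roots (horizontal) and ammonium roots (vertical) for the 89 transcripts called under nitrate, with the line of equal change. Points lie in the upper right for 36 of the 40 that rose and in the lower left for 47 of the 49 that fell. Of the 89, 78 lie closer to 0 under ammonium than under nitrate. Their choice by the change under nitrate favours this, so it shows nothing about the size of the ammonium response.

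Under ammonium itself, 10 pine transcripts were called, all lower at 720 ppm (0.0162% of pine transcripts, against 0.00641% of all transcripts tested). They fell in 4 groups of neighbouring numbers, and their log2 fold changes of -1.01 to -0.75 stood beside -0.66 to -0.26 under nitrate, so all 10 were lower in both. The lists shared PpCO2_125992 and PpCO2_125994, named here after their values were seen, which is 2.25% of the nitrate list and 20% of the ammonium list. PpCO2_125994 stood at 44.9, 35.2 and 38.2 CPM in nitrate roots at 400 ppm and at 27.7, 25.5 and 21.8 CPM at 720 ppm. In ammonium roots it stood at 29.5, 29.5 and 34.5 CPM and then at 16.3, 16.7 and 17.7 CPM, so neither pair of groups overlapped. The log2 fold changes were -0.66 under nitrate and -0.89 under ammonium (edgeR adjusted p = 0.0121 and 0.0443). Without ammonium replicate 1 at 720 ppm, an alternative added after seeing the data, 2 pine transcripts were called higher and 2 lower under ammonium, and the direction under nitrate was again shared by 36 of the 40 and 47 of the 49.

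The CO2 response itself differed between nitrogen forms for 22 pine transcripts in edgeR's test of the difference, 18 with a lower and 4 with a higher change under ammonium than under nitrate. These are 0.0291% and 0.00648% of the pine transcripts, against 0.0762% negative and 0.386% positive among all tested. In all 18 the fitted change was positive under nitrate (median 0.54) and negative under ammonium (median -0.61). In all 4 it was the reverse (medians -0.34 and 0.83). The choice of these transcripts by the difference itself favours such opposite signs. DESeq2 called 176 such pine transcripts, while limma-voom called 0 (3496 at an unadjusted p under 0.05, lowest adjusted p 0.138) and so did edgeR over all 36 libraries. Leaving out a library moved the count to 6 without nitrate replicate 3 at 400 ppm or nitrate replicate 1 at 720 ppm, to 9 without nitrate replicate 2 at 400 ppm, to 14 and 13 without ammonium replicates 1 and 3 at 400 ppm, and to 35 and 7 without ammonium replicates 1 and 2 at 720 ppm.

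PpCO2_27717 had the most negative difference among those that averaged 5 CPM or more in the 12 root libraries. Under nitrate it stood at 6.54, 6.16 and 8.54 CPM at 400 ppm and at 9.40, 11.5 and 9.46 CPM at 720 ppm. Under ammonium it stood at 18.3, 16.1 and 15.3 CPM at 400 ppm and at 7.26, 8.46 and 9.76 CPM at 720 ppm. The groups did not overlap under either form, with 720 ppm higher under nitrate and lower under ammonium, a difference of -1.48 on the log2 scale (SE 0.209, edgeR adjusted p = 0.00332), though neither change passed the test alone (adjusted p = 0.230 and 0.0867).

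PpCO2_115341 showed the same pattern, with 11.5, 11.4 and 11.2 CPM at 400 ppm and 20.7, 12.5 and 21.1 CPM at 720 ppm under nitrate. Under ammonium it held 8.67 ± 1.30 and 5.35 ± 0.820 CPM (SD, n = 3). The difference was -1.36 (SE 0.259, edgeR adjusted p = 0.0342), and it stayed called in 1 of the 6 fits without a nitrate library, against all 6 for PpCO2_27717.

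The most positive difference, 1.53, belonged to a transcript that averaged 3.15 CPM in the 12 root libraries. The 2 that followed belonged to transcripts far more abundant under nitrate. PpCO2_178484 held 232.4, 190.4 and 223.4 CPM under nitrate at 400 ppm and 182.7, 184.3 and 152.0 CPM at 720 ppm. Under ammonium it held 3.05, 3.12 and 3.62 CPM and then 6.68, 5.30 and 5.17 CPM. The difference of 1.13 (SE 0.172, edgeR adjusted p = 0.00626) therefore sets a small proportional change at a high level beside a difference of a few CPM under ammonium. PpCO2_14431 had 39.3 ± 1.74 and 34.8 ± 4.84 CPM under nitrate and 1.00 ± 0.251 and 2.08 ± 0.208 CPM under ammonium (SD, n = 3; difference 1.23, SE 0.218, edgeR adjusted p = 0.0205). In 3 of the 4 positive differences the nitrate level was more than 10 times the ammonium level.

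**Figure D5:**
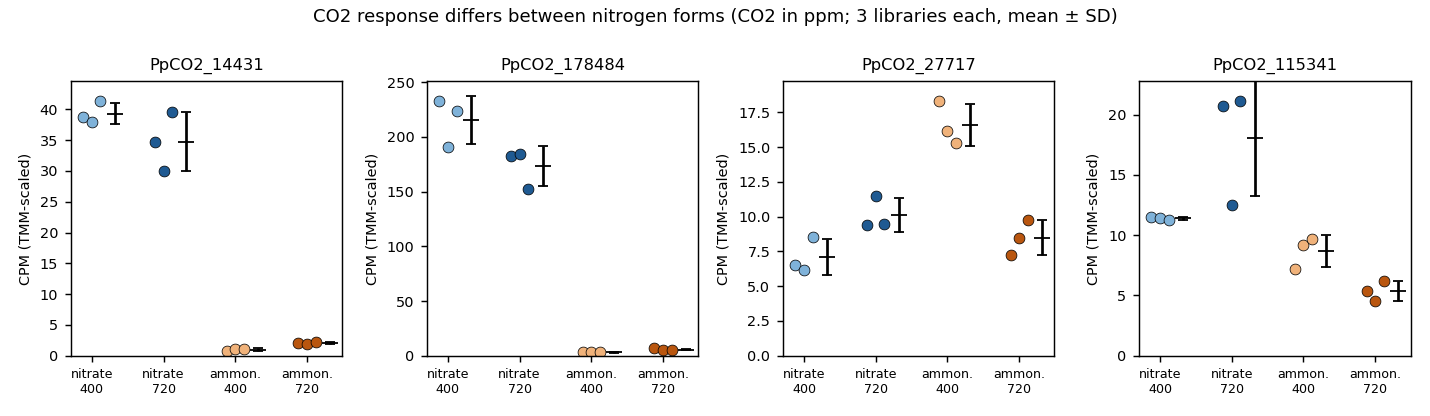
Level (TMM-scaled CPM) of the 4 named transcripts whose CO2 response differed between nitrogen forms, in the 3 libraries of each root group (points) with mean and SD (bars). PpCO2_14431 and PpCO2_178484 stand near 0 in all 6 ammonium libraries, and the group means of PpCO2_27717 are 7.08 and 10.1 CPM under nitrate at 400 and 720 ppm but 16.6 and 8.49 CPM under ammonium.

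The shoot of the same seedlings was set beside the roots in a fit of all 36 libraries, which share 1 estimate of spread. In that fit 21 pine transcripts were called in nitrate roots (0.0340% of pine transcripts, against 0.0892% of 186020 tested), 262 in nitrate needles (257 higher and 5 lower; 0.424%, against 0.155%) and 5 in nitrate stem (0.00810%, against 0.00323%). Of the 89 root calls, 36 of the 40 that rose were positive in needles (median 0.39). Of the 49 that fell, 24 were negative there (median 0.00). Over all pine transcripts 68.9% were positive in needles, with a median of 0.13. In stem 25 of the 40 were positive (median 0.29) and 40 of the 49 negative (median -0.15), against 50.2% positive among all pine transcripts. Replicates 1 and 2 of the nitrate needles at 400 ppm and replicate 1 of the nitrate stem at 720 ppm were among 7 shoot libraries with more than 65% even values among counts above 20. They are called low-complexity libraries here, although the source of the even values was not tested. Leaving out the 7 was an alternative added after seeing the data. It leaves 1 needle library of nitrate at 400 ppm and assumes it to vary like the other groups. Of the transcripts that rose in roots, 37 were then positive in needles, against 60.8% of all pine transcripts, and of those that fell, 33 were negative (median -0.13).

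The calls of the 12-library root fit and the needle calls of the 36-library fit shared 2 transcripts, PpCO2_54566 and PpCO2_40890, named after their values were seen, which is 2.25% of the root list and 0.763% of the needle list. PpCO2_54566, whose highest organ mean was in needles, rose in both, with a log2 fold change of 1.16 in roots and 1.15 in needles (edgeR adjusted p = 0.0387 and 0.0458). In roots it stood at 0.748, 0.901 and 1.13 CPM at 400 ppm and at 2.66, 1.69 and 1.83 CPM at 720 ppm. PpCO2_40890 rose 1.56-fold in roots, from 14.2 ± 2.99 to 22.2 ± 1.93 CPM (SD, n = 3), a log2 fold change of 0.64 (edgeR adjusted p = 0.0474). Its log2 fold change in needles was 4.63 (edgeR adjusted p = 0.0254). It averaged only 0.524 CPM over the 12 needle libraries, before TMM scaling, so the size of that change is uncertain. In the 36-library fit neither was called in roots (edgeR adjusted p = 0.0834 for PpCO2_54566 and 1 for PpCO2_40890).

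The nitrate CO2 response differed between roots and needles for 8 pine transcripts by edgeR's test of the difference (0.0130% of them, against 0.00484% of all tested). At an unadjusted p under 0.05 there were 4814 pine transcripts (7.80%, against 6.19% of all tested). All 8 had a lower change in roots, of -0.60 to 0.17, than in needles, of 0.36 to 7.33. PpCO2_22266 was listed at 0, 0 and 0.244 CPM in needles at 400 ppm and at 1.89, 1.27 and 2.07 CPM at 720 ppm. In roots, on the same scale, it stood at 12.4 ± 2.17 and 14.0 ± 2.51 CPM (SD, n = 3; difference -4.31, SE 0.665, edgeR adjusted p = 0.0387). The size of that difference is uncertain, since 2 of the 3 needle libraries at 400 ppm had no count. Without replicate 3 of every group all needle libraries at 400 ppm were at 0, and the fitted difference of -10.07 then depends on the prior count. Without replicates 1 or 2 it was -3.65 or -3.80 and no longer called. PpCO2_71051 stood at 0.460, 1.11 and 1.17 CPM and then at 3.48, 3.37 and 3.59 CPM in needles, and at 8.53 ± 1.04 and 8.01 ± 1.28 CPM in roots (difference -2.01, SE 0.337, edgeR adjusted p = 0.0393). Without the low-complexity libraries these differences were -2.66 and -1.66 (edgeR adjusted p = 0.0615 and 0.0473), and 22 pine transcripts were called, and with the pool of seedlings as a block 0 were called. The count was 3, 2 and 66 without replicates 1, 2 and 3 of every group. Neither was called in nitrate roots.

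Between roots and stem no pine transcript and no transcript of the whole table was called (0% of those tested) by edgeR's test of the difference. At an unadjusted p under 0.05 there were 1238 pine transcripts (2.00%, against 2.60% of all tested), and their lowest adjusted p was 0.109. Limma-voom called 16 pine transcripts. EdgeR called 4 once the low-complexity libraries were left out and 1 in the fit blocked by pool of seedlings. The 0 calls do not show that roots and stem respond alike.

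Transcripts just inside and just outside the shoot threshold had changes of similar size, with a wider spread than over all pine transcripts. Of 584 transcripts just inside the shoot threshold (0.5 to 0.6 CPM as the higher of the needle and stem means), 1 was called in nitrate roots, and their absolute log2 fold change had a median of 0.253. Of 554 just outside (0.4 to 0.5 CPM), 0 were called, with a median of 0.286. The 5th to 95th percentiles of log2 fold change were -0.38 to 0.78 just inside and -0.37 to 0.92 just outside. Over all pine transcripts they were -0.33 to 0.40.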

How the data were processed

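Total RNA of pooled seedlings was sequenced in read pairs on an Illumina instrument, per the labels. The authors deposited 1 table of raw counts, with transcript identifiers as rows and 36 libraries as columns. All columns matched a sample. The submitters' processing notes name bcl2fastq. How reads were aligned, counted, assembled into transcripts and assigned when they match more than 1 is not given in the sources used here. The labels' treatment and extraction texts describe another root experiment, so groups were taken from titles and characteristics. Replicates are biological ones per the labels, and no pair of replicates agreed within sampling noise (chi-square per degree of freedom 12.0 to 28.7 in nitrate roots).

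Tests were run with edgeR 4.0.16, DESeq2 1.42.0 and limma 3.58.1 in R 4.3.3. A fit with 1 mean for each of the 4 root groups used all 12 root libraries and left 8 residual degrees of freedom, with filterByExpr at a minimum count of 10, TMM scaling and edgeR's robust quasi-likelihood F-test. Calls are at a Benjamini-Hochberg adjusted p under 0.05 over all transcripts tested. Differences between organs used all 36 libraries. Permutation of 3 against 3 libraries cannot go below p = 0.1, so none was run. Levels are TMM-scaled CPM, from the 12-library fit for roots and the 36-library fit for shoots and organ comparisons. Scripts were tested on simulated data.

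Named transcripts are the called pine transcripts with the largest fold change in a comparison, 2 in each direction, averaging 5 CPM or more in the libraries compared and, within nitrate roots, no overlap, and for nitrate roots also the 2 of each direction with the highest level. The members, rules and tests were chosen with earlier results of these data known. Gene lists drawn up for nitrogen, carbon, cell wall and hormone pathways were not run, since no identifier carries a name. Same-numbered nitrate libraries deviated together from their group means at 400 and 720 ppm, with Pearson's r of 0.331, 0.115 and 0.264 for replicates 1, 2 and 3. The numbers were therefore taken to pair them, but the main fits do not use this pairing. With the replicate number as a block, an alternative, 128 pine transcripts were called, 72 of the 89 among them. Across nitrogen forms the pairing was less clear. Nitrate replicate 2 at 720 ppm had an r of 0.0451 with ammonium replicate 2 and of 0.228 with ammonium replicate 3. Other scalings, filters, tests and library sets were also run.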

Additional observations from a re-analysis of the deposited data

Results flagged for a closer look

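For 4 named transcripts the CO2 response differed between nitrogen forms by edgeR's test of the difference. The values, as the log2 fold change under ammonium minus that under nitrate, were 1.23 for PpCO2_14431, 1.13 for PpCO2_178484, -1.48 for PpCO2_27717 and -1.36 for PpCO2_115341. In the 6 fits that each left out 1 nitrate library, PpCO2_178484 and PpCO2_27717 stayed called in all 6, PpCO2_14431 in 2 and PpCO2_115341 in 1. With limma-voom and with all 36 libraries none of the 4 was called.

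For 2 named transcripts the nitrate CO2 response differed between roots and needles, by -4.31 for PpCO2_22266 and -2.01 for PpCO2_71051 on the log2 scale, roots minus needles. The needle libraries at 400 ppm that these differences rest on include 2 of low complexity. PpCO2_22266 was called in 1 and PpCO2_71051 in none of the 3 fits that left out a replicate number of every group. With the pool of seedlings as a block neither was called (edgeR adjusted p = 0.101 and 0.0806).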

How the results depend on the processing

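The count of 89 called pine transcripts in nitrate roots was 470 with DESeq2, 145 in a fit of the 6 nitrate root libraries, 128 with the replicate number as a block, 23 with a fold change over 2, 21 with all 36 libraries and 0 with limma-voom. Leaving out 1 of the 12 root libraries gave 20 to 169. With DESeq2's size factors, no filter, TMM over the pine transcripts or the other member rules it was within 1.5 times. The balance of directions moved with TMM over the pine transcripts, to 45 higher and 42 lower against 40 and 49 in the main fit. The median log2 fold change of the pine transcripts was then 0.00067, against -0.02 in the main fit. In every such fit of this comparison all 89 kept their direction, which groups that do not overlap make nearly certain. The identity of the calls moved: 56 of the 89 were called in the 6-library fit, 72 with the block and 15 to 36 without 1 nitrate library. Of all transcripts tested, 1097 were called, 2841 with DESeq2, 1512 in the 6-library fit, 166 with all 36 libraries and 0 with limma-voom (10257 at an unadjusted p under 0.05), and 674 to 1496 with 1 library left out. The 22 differences between nitrogen forms became 176 with DESeq2, 31 with the block, 0 with all 36 libraries and 0 with limma-voom, and 6 to 35 with 1 library left out. The 8 differences between roots and needles became 140 with limma-voom, 22 without the low-complexity libraries, 4 with DESeq2's size factors and 0 with the pool of seedlings as a replicate block, and 2 to 66 with a replicate number left out. The 0 between roots and stem became 16 with limma-voom, 1 with the pool as a block and 4 once low-complexity libraries were left out. Of the 7 named transcripts, 4 were called with TMM over the pine transcripts, 3 that rose and 1 that fell. With all 36 libraries and with limma-voom 0 of the 7 were called, and 1 to 7 were called with 1 library left out. The block ended the call of PpCO2_180707 and, for the organ differences, of PpCO2_22266 and PpCO2_71051, and changed no other call of a named transcript. No fitted change of a named transcript reversed, though for the 7 this was nearly certain from groups that do not overlap. The cause of these shifts was not tested. The median standard error of a single pine transcript was 0.165 on the log2 scale. With 3 libraries a group, a transcript that was not called may still have changed.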
